A study of Mus musculus with 6 samples.

Results

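The sterol regulatory element binding proteins (SREBPs) are membrane-bound transcription factors that switch on the genes for making cholesterol and fatty acids. When the endoplasmic reticulum membrane holds little cholesterol, SCAP escorts them to the Golgi, where the site-1 and site-2 proteases release the part that enters the nucleus, and INSIG proteins hold the complex back when sterols are plentiful. SREBP-2 acts mainly on the cholesterol genes and SREBP-1c mainly on the fatty acid genes, and dividing blood cells need both products for new membrane. The genes described here are 30 members of this program, chosen by name from general knowledge of the pathway. They were chosen with earlier results of these data known. They hold the regulators Srebf1, Srebf2 and Insig1, 7 enzymes from acetoacetyl-CoA to farnesyl diphosphate, 11 enzymes from squalene to cholesterol, the sterol carrier gene Stard4 and 8 genes of fatty acid synthesis. Of the 23284 genes in the files, 29 members were found by their symbol and Msmo1 by its older symbol Sc4mol. All 30 had a mean of at least 1 FPKM (fragments per length of transcript and depth of library) over the 6 libraries, the level above which 11703 genes were tested.

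The cells were C1498, a leukemia line of the C57BL/6 mouse, as 1 clone carrying green fluorescent protein, and they had been injected into female C57BL/6 J mice 8 to 10 weeks old. On day 21, cells positive for the fluorescent protein and for CD49b were sorted from the marrow of 3 mice treated with cytarabine, a nucleoside analog that blocks DNA synthesis, and of 3 control mice. The labels give the controls both as PBS-treated and as untreated. The study injected cytarabine on days 19 and 20 for imaging, and does not state the schedule of the RNA mice separately. There was 1 library for each mouse, called cytarabine 1 to 3 and control 1 to 3 below, and the same clone was given to all mice.

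The libraries differed in more than treatment. Library totals inferred from the steps between low values were 11440000 to 18770000 reads, at which 3 reads on a transcript of 2000 bases give 0.0887 to 0.146 FPKM. Of the 12 colon epithelium markers, 11 were found, and their summed level was 364 to 5091 FPKM with cytarabine and 26.5 to 2254 FPKM in controls, with 4749 and 5091 FPKM in cytarabine 2 and 3 and 2254 FPKM in control 1. The first principal component placed the same 3 libraries on one side, and differences were therefore also taken within each side. Summed levels of the 7 smooth muscle markers were 123 to 1178 FPKM with cytarabine and 24.7 to 959 FPKM in controls, of the 8 heart markers 7.52 to 689.8 FPKM and 52.9 to 2537 FPKM, and of the 9 adipocyte markers 3.75 to 114 FPKM and 5.35 to 189 FPKM. The 8 neutrophil markers summed to 189 to 1433 FPKM with cytarabine and 1438 to 2043 FPKM in controls, without overlap, and none of the markers of these 5 lists was at 0 throughout. The 7 macrophage markers summed to 16.4 to 61.1 FPKM and 14.3 to 156 FPKM, 7 of 8 erythroid markers to 41.8 to 311 FPKM and 39.0 to 72.8 FPKM, and the 8 liver markers, with Fgb at 0 in all libraries, to 5.41 to 24.7 FPKM and 3.55 to 8.25 FPKM. As to the cells themselves, Cd3e and Cd3g, which encode chains of the T cell receptor complex, stood at 129.6 to 199 FPKM and 449 to 652 FPKM. Mpo, Elane, Itgam, Kit and Cd34, genes of myeloid cells and their progenitors, stayed at or under 12.3 FPKM in all libraries but cytarabine 1, which had 71.1 FPKM of Mpo and 81.7 FPKM of Elane. The cells are therefore named by their line. In these bulk samples, fewer cells of a type and less RNA per cell cannot be told apart.

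The start of the genes is shown first, because NF-Y, which binds CCAAT, is the usual partner of SREBP on its promoters. In RefSeq sequence of GRCm38.p6, 23 of the 30 members had a promoter window, and Fdps, Fdft1, Sqle, Stard4, Scd1, Scd2 and Fads1 had none. Within the 250 bases before the start, CCAAT was found on either strand in 18 of 23 members (78.3%), against 40.9% of 8364 tested genes with a window. GGGCGG, the GC box of Sp1, was found in 19 of 23 members (82.6%) against 63.2%, and CACGTG, the E-box, in 4 of 23 (17.4%) against 839 of 8364 tested genes. For the classical sterol regulatory element, TCACNCCAC was found in 1 member, Hmgcs1, and in 1.28% of tested genes, and TCACNCGAC in 0 members and in 0.526% of tested genes. Searches were on both strands, and none of these motifs overlapped another in the stretches printed. Genes with several windows, such as Srebf1 and Dhcr7 with 3 each, had more sequence in which to match.

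The stretches below carry CCAAT or its complement ATTGG in capitals, and in Hmgcs1 also the sterol element. Hmgcs1 (chr13:119690101-119690325, plus strand, bases -250 to -26 from the start) is shown as the member with the sterol element. The others are genes whose groups did not overlap and which held CCAAT before the start. They are Srebf2 (chr15:82147119-82147153, plus strand), Mvd (chr8:122443430-122443497, minus strand), Lss (chr10:76531528-76531562, plus strand) and Sc5d (chr9:42264305-42264339, minus strand). All lie before an annotated start, with no GENCODE exon. Of the other members without overlap, Acat2 and Acaca had a window but no CCAAT before the start. The stretch of Nsdhl holds CCAAT but overlaps a GENCODE exon and is not shown, and Fdps, Sqle and Fads1 had no window.
Hmgcs1: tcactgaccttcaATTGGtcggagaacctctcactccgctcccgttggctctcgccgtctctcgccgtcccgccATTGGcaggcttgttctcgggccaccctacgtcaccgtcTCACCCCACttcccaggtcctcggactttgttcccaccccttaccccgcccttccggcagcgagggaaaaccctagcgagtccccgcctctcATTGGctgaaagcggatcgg
Srebf2: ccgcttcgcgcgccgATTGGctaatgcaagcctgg
Mvd: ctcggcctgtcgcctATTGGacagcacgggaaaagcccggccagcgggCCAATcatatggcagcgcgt
Lss: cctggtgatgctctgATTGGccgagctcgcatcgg
Sc5d: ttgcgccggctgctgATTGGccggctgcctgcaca
A match describes these letters in this window and is not a measured binding site.

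All branches of the program were expressed in these sorted samples, whose RNA also held markers of other tissues. Mean FPKM over the 6 libraries, which is per length and so can be compared between genes, was highest for Scd2 at 119, Acly at 106, Fdps at 82.1 and Srebf2 at 50.9, and lowest for Tm7sf2 at 3.11 and Mvk at 3.83. Srebf2 was at a higher level than Srebf1 in every library. Of the 2 stearoyl-CoA desaturases, Scd2 had 111 to 130.4 FPKM and Scd1 0.411 to 20.4 FPKM. The highest library was at most 1.90 times the lowest for 27 of the members, the exceptions being Tm7sf2 at 2.77 times, Fads2 at 9.97 times and Scd1 at 49.6 times.

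**Figure D1:**
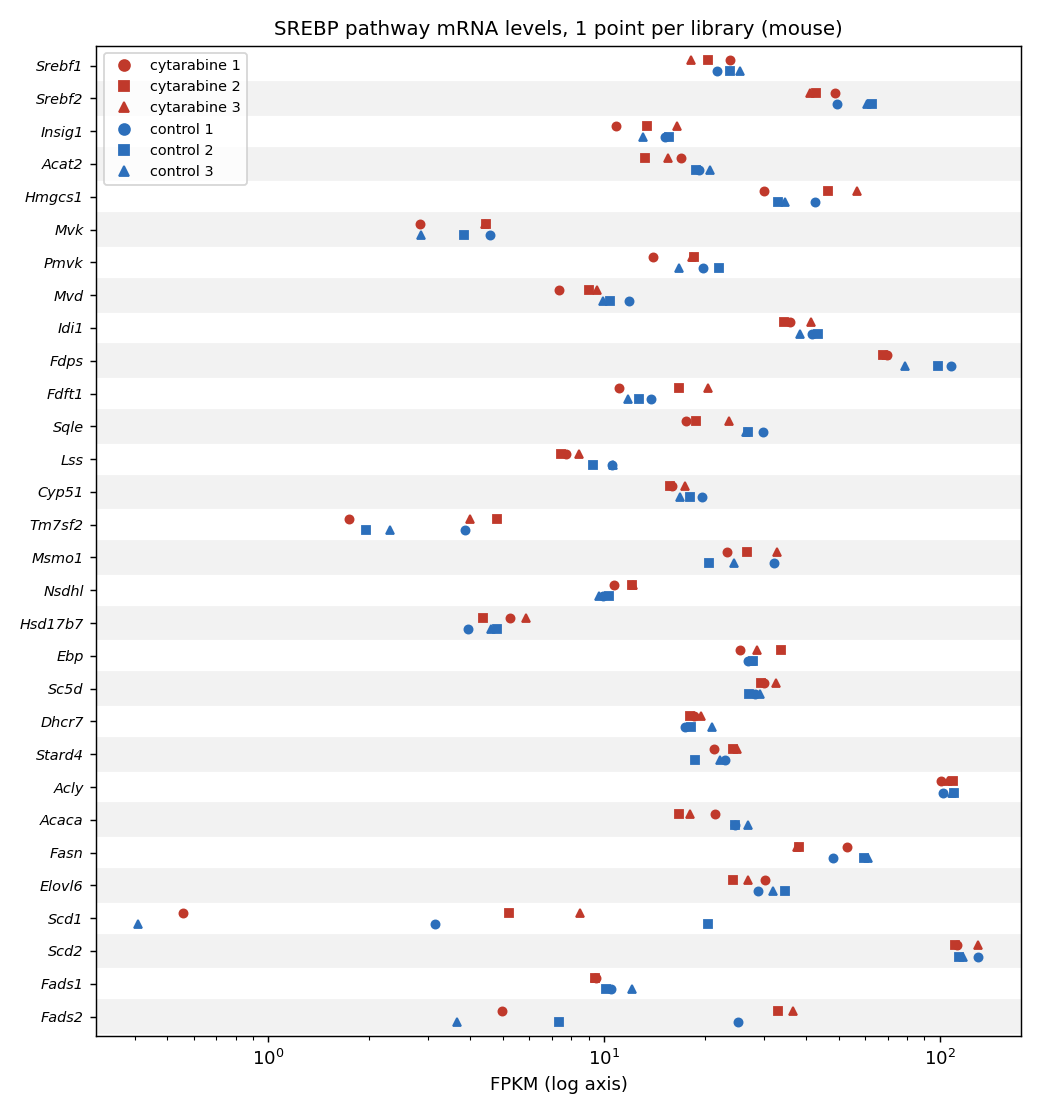
Level of each of the 30 genes in each library, in FPKM on a log axis, with genes in pathway order and 1 point per library (red cytarabine, blue control, shape the replicate number). Most genes span less than a factor of 1.90 between libraries, while Scd1 and Fads2 spread far along the axis in both groups.

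The cytarabine libraries were then compared with the controls. For Sqle, Fdps, Acaca, Srebf2, Acat2, Lss, Mvd and Fads1, all treated libraries were below all controls, with means 0.720 to 0.863 times those of the controls. Nsdhl and Sc5d, enzymes of late sterol steps, were above all controls in all treated libraries, at 1.17 and 1.09 times. None of the 30 passed at an adjusted p under 0.05 from limma, as was the case for all 11703 genes (0%). At an unadjusted p under 0.05 from limma, 6 members were lower, or 20% against a background of 9.81%, and 1 was higher, or 3.33% against 7.6%. The lower members numbered 4 without control 3 and 9 without cytarabine 1, and 0 with colon and heart marker levels as covariates. Of all 11703 tested genes, 585, 2049 and 308 were lower in these fits, so the background moved in the same order. Groups did not overlap for 8 lower members, or 26.7% against 12.9% of all tested genes, and for 2 higher members, or 6.67% against 10.9%. The median log2 fold change of the members was -0.13, beside -0.0015 over all tested genes, and 19 of the 30 were below 0. Without cytarabine 1 the median of the members was -0.0061.

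**Figure D2:**
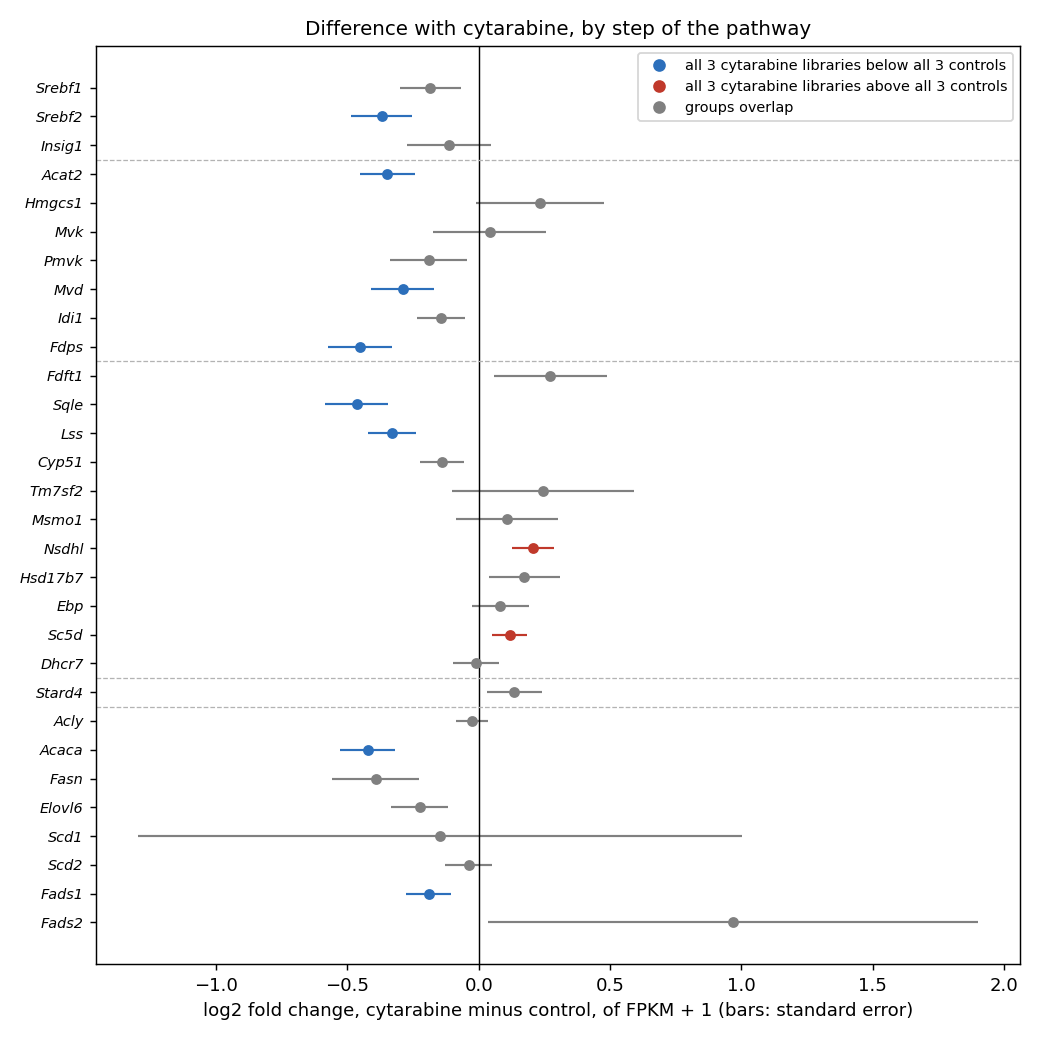
Log2 fold change of FPKM + 1 with its standard error for each gene, cytarabine minus control, with dashed lines between regulators, farnesyl diphosphate enzymes, sterol enzymes, Stard4 and fatty acid genes. The 8 genes in blue, whose groups did not overlap and which were lower, lie between -0.46 and -0.19, and those in red, Nsdhl and Sc5d, at 0.21 and 0.12.

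Among the regulators, Srebf2 (chromosome 15, 82147269 to 82205379), which encodes SREBP-2, stood at 48.9, 42.7 and 41.0 FPKM in cytarabine 1, 2 and 3, against 49.4, 62.8 and 60.5 FPKM in control 1, 2 and 3. The groups were separated only narrowly, since cytarabine 1 and control 1 nearly met. The log2 fold change was -0.37 (standard error, SE, 0.12, limma adjusted p = 0.218). Srebf1, which encodes SREBP-1a and SREBP-1c, had 23.7, 20.4 and 18.2 FPKM against 21.7, 23.7 and 25.5 FPKM, and its groups overlapped (log2 fold change -0.18, standard error 0.12, adjusted p = 0.408 from limma). Insig1, itself an SREBP target and the brake on the complex, ranged from 10.8 to 16.5 FPKM with cytarabine and from 13.1 to 15.6 FPKM in controls, with both the lowest and the highest library among the treated mice (log2 fold change -0.11, SE 0.16).

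In the steps to farnesyl diphosphate, 3 of the 7 genes were lower without overlap, against 12.9% of all tested genes. Fdps (chromosome 3, 89093588 to 89101967), the synthase that makes farnesyl diphosphate for sterols and for protein prenylation, stood at 69.6, 67.8 and 69.2 FPKM after cytarabine, against 108, 99.0 and 78.9 FPKM in controls. The treated libraries were almost equal, at 68.9 ± 0.914 FPKM (SD, n = 3), while the controls spread over 95.4 ± 15 FPKM (SD, n = 3). Its log2 fold change was -0.45 (SE 0.12, limma adjusted p = 0.183).
Acat2 (chromosome 17, 12943042 to 12960725), the cytosolic thiolase that makes acetoacetyl-CoA, had 17.0, 13.2 and 15.5 FPKM against 19.2, 18.8 and 20.7 FPKM, a log2 fold change of -0.35 (SE 0.10, limma adjusted p = 0.206). Its near-identical neighbour Acat3, with which reads could have been shared, had 45.8 to 57.4 FPKM with cytarabine and 53.1 to 64.1 FPKM in controls, with overlap (log2 fold change -0.14). Mvd, the decarboxylase that makes isopentenyl diphosphate, had 7.34, 9.05 and 9.50 FPKM against 11.8, 10.5 and 9.91 FPKM, with its highest treated and lowest control library close together (log2 fold change -0.29, standard error 0.12, adjusted p = 0.293 from limma).
The other 4 genes of this stretch overlapped. Idi1, which interconverts the isopentenyl diphosphates, and the mevalonate kinases Mvk and Pmvk had log2 fold changes of -0.14, 0.042 and -0.19, each with a standard error of 0.09 to 0.21. Hmgcs1, the synthase at the head of the committed pathway, had a log2 fold change above 0, with 29.9, 46.6 and 56.7 FPKM against 42.4, 32.9 and 34.5 FPKM. It was highest in the 3 libraries with much colon transcript, and cytarabine 1 was the lowest library of all (log2 fold change 0.23, standard error 0.24, adjusted p = 0.595 from limma).

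The 11 genes from squalene to cholesterol are given by step. Sqle (chromosome 15, 59315092 to 59331193), the squalene epoxidase and a rate-limiting enzyme of the sterol branch, was at 17.6, 18.8 and 23.5 FPKM after cytarabine, against 29.7, 26.9 and 26.5 FPKM in controls. Every treated library was below every control, and the log2 fold change of -0.46 (SE 0.12, limma adjusted p = 0.180) was the lowest of the 30. Lss (chromosome 10, 76531565 to 76557139), the cyclase that closes lanosterol from the product of Sqle, was at 7.72, 7.44 and 8.45 FPKM against 10.5, 9.28 and 10.7 FPKM, and had a log2 fold change of -0.33 (SE 0.09, limma adjusted p = 0.185). The gene before them, Fdft1 or squalene synthase, differed in pattern, with 11.1, 16.7 and 20.4 FPKM against 13.8, 12.7 and 11.8 FPKM and overlap between the groups (log2 fold change 0.27, SE 0.21).
After lanosterol, Cyp51, the lanosterol demethylase, had 15.7 to 17.4 FPKM against 16.8 to 19.6 FPKM (log2 fold change -0.14). From there on no gene was lower without overlap. Nsdhl (chromosome X, 72918521 to 72958528), the dehydrogenase of the C4 demethylation complex, was at 10.7, 12.1 and 12.2 FPKM after cytarabine, against 9.95, 10.4 and 9.63 FPKM in controls. The groups were separated by a small step, with a log2 fold change of 0.21 (SE 0.08, limma adjusted p = 0.271). Sc5d, the desaturase that sets the B ring double bond, was at 29.9, 29.4 and 32.5 FPKM against 28.1, 27.1 and 29.1 FPKM, with a log2 fold change of 0.12 (SE 0.07, limma adjusted p = 0.382). The other members of the late steps were Msmo1 and Hsd17b7 of C4 demethylation, the sterol isomerase Ebp and the reductases Tm7sf2 and Dhcr7. Their log2 fold changes ran from -0.0094 for Dhcr7 to 0.24 for Tm7sf2, and all overlapped. Stard4, which carries cholesterol between membranes, had 21.2 to 24.8 FPKM against 18.7 to 22.9 FPKM (log2 fold change 0.14, SE 0.11). The median log2 fold change was -0.19 over the 7 genes up to farnesyl diphosphate and 0.11 over the 11 sterol genes, and a difference between these groups of genes was not tested. The first median was -0.29 without control 3, -0.12 without cytarabine 1 and -0.11 without control 2, and the sterol median was 0.028 without cytarabine 2. The sterol median was -0.12 between cytarabine 1 and control 2 and 3.

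For fatty acids, Acaca (chromosome 11, 84129635 to 84401651), the acetyl-CoA carboxylase that commits carbon to fatty acid synthesis, was at 21.4, 16.7 and 18.1 FPKM after cytarabine, against 24.6, 24.6 and 26.8 FPKM in controls. All treated libraries were below the controls, which were nearly equal, and the log2 fold change was -0.42 (SE 0.10, limma adjusted p = 0.167, the smallest of the 30). Fasn, the synthase that uses its product, was at 53.0, 38.2 and 37.5 FPKM against 48.0, 59.5 and 61.1 FPKM. Here the groups overlapped through cytarabine 1 and control 1 (log2 fold change -0.39, standard error 0.17, adjusted p = 0.297 from limma).
The elongase Elovl6 had 24.2 to 30.1 FPKM against 28.8 to 34.6 FPKM (log2 fold change -0.23, SE 0.11). Fads1, the delta-5 desaturase, had 9.47, 9.39 and 9.40 FPKM against 10.5, 10.2 and 12.1 FPKM, with a log2 fold change of -0.19 (SE 0.09, limma adjusted p = 0.317). The treated libraries were again almost equal to each other. In contrast, the supply enzyme Acly, which splits citrate into acetyl-CoA, had 105 ± 4.23 FPKM (SD, n = 3) with cytarabine and 107 ± 4.41 FPKM (SD, n = 3) in controls, and Scd2 had 118 ± 10.5 and 121 ± 8.67 FPKM (SD, n = 3 each). Their log2 fold changes were -0.024 (SE 0.06) and -0.037 (SE 0.09).

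Fads2 and Scd1 differed most between libraries, along with markers of other tissues. Fads2, the delta-6 desaturase, was at 4.97, 33.0 and 36.5 FPKM after cytarabine, against 25.1, 7.36 and 3.66 FPKM in controls, so that its 3 high libraries were those with much colon transcript. Its log2 fold change of 0.97, the highest of the 30, had an SE of 0.93 (limma adjusted p = 0.566), and was 0.41 without control 3 and 1.83 without cytarabine 1. Scd1, a desaturase typical of fat and liver, was at 0.558, 5.23 and 8.48 FPKM against 3.14, 20.4 and 0.411 FPKM.
The summed adipocyte markers were 3.75, 89.4 and 114 FPKM in cytarabine 1, 2 and 3, against 51.5, 189 and 5.35 FPKM in control 1, 2 and 3, and both were highest in control 2 and lowest in cytarabine 1 and control 3. The log2 fold change of Scd1 was -0.15 (SE 1.15, limma adjusted p = 0.949), from -1.06 without control 3 to 0.90 without control 2. The part of other tissues in these values was not tested.

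**Figure D3:**
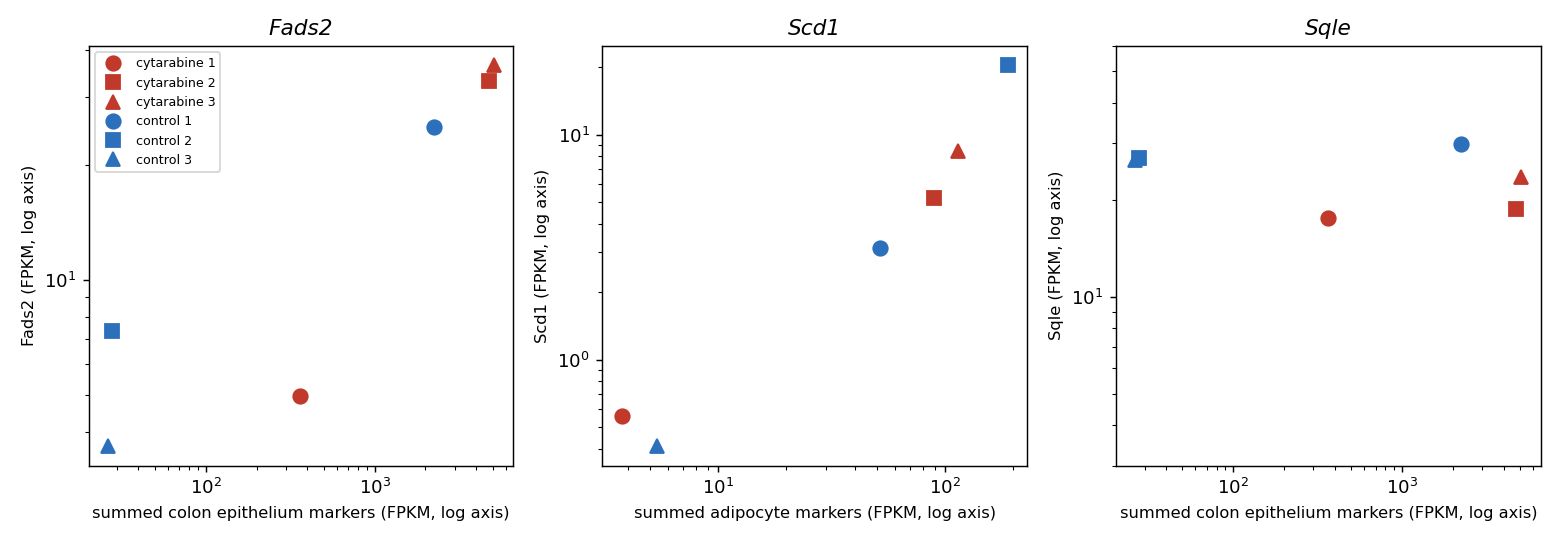
Each library's FPKM of Fads2, Scd1 and Sqle (vertical, log axes) against the summed FPKM of colon epithelium or adipocyte markers (horizontal, log axes), 1 point per library, red cytarabine and blue control. Fads2 and Scd1 are high where the markers are high in either group. Sqle lies between 17.6 and 23.5 FPKM in all cytarabine libraries and between 26.5 and 29.7 FPKM in all controls. Colon markers were higher with cytarabine on both sides of the colon division, and their part in these values was not tested.

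Within each side of the colon division the comparison rests on 3 libraries and has no test. Colon transcript was not matched within a side and was higher with cytarabine on both. Summed colon markers were 364 FPKM in cytarabine 1 against 27.8 and 26.5 FPKM in control 2 and 3. On the other side they were 4749 and 5091 FPKM in cytarabine 2 and 3 against 2254 FPKM in control 1. Between cytarabine 1 and control 2 and 3, with little colon transcript, the median difference of the members on the log2(FPKM + 1) scale was -0.17, and between cytarabine 2 and 3 and control 1 it was -0.10, beside 0.0073 and 0.0064 over all tested genes. Both differences were below 0 for 17 of the 30 members (56.7%) and for 32.7% of all tested genes, and both were above 0 for 4 members (13.3%) and for 35.6%. Sqle differed by -0.58 and -0.48, Fdps by -0.34 and -0.65, Lss by -0.33 and -0.37, and Acaca by -0.25 and -0.48. For a gene whose groups do not overlap, the direction on both sides is fixed. Hmgcs1 had opposite signs on the 2 sides, -0.17 and 0.27, as did Fdft1 with -0.13 and 0.40 and Fads2 with -0.063 and 0.45. Signs were also opposite for Tm7sf2, Msmo1, Ebp, Dhcr7, Acly and Scd1.

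**Figure D4:**
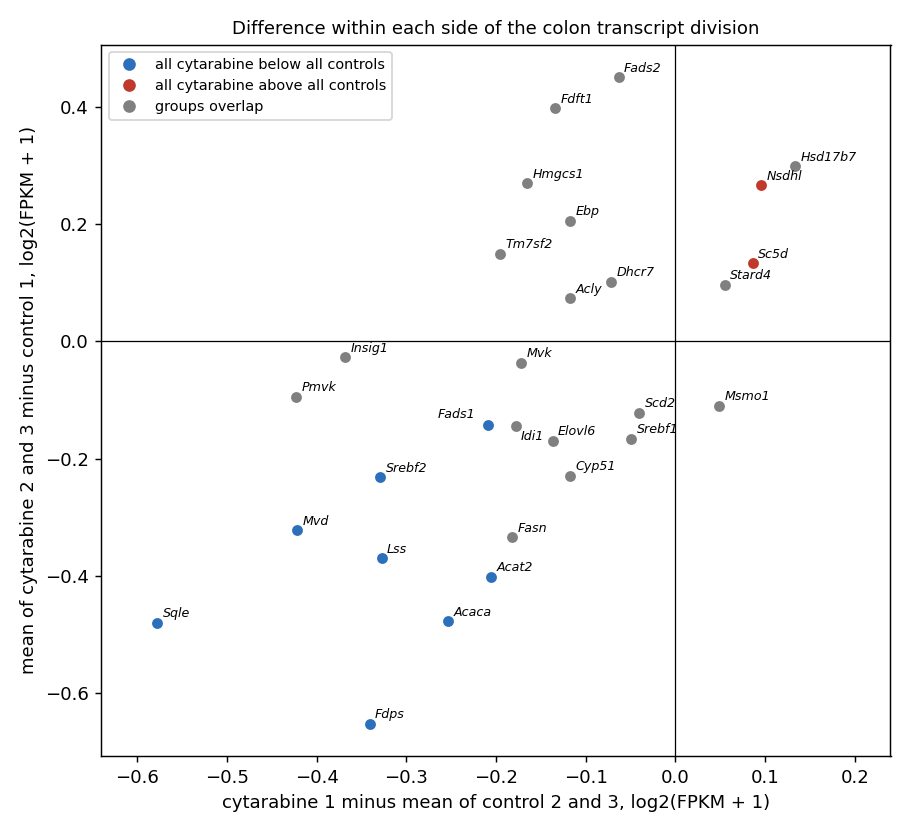
Difference in log2(FPKM + 1) for each gene between cytarabine 1 and the mean of control 2 and 3 (horizontal) and between the mean of cytarabine 2 and 3 and control 1 (vertical), without Scd1, which lies outside the axes at -1.82 and 0.89. Counting Scd1, 17 genes are below 0 on both axes and 4 are above 0 on both. Hmgcs1, Fdft1, Fads2, Tm7sf2, Ebp, Dhcr7 and Acly lie at the upper left, and Msmo1 at the lower right.

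Leaving out 1 library at a time, Sqle, Fdps, Lss and Acaca had an unadjusted p under 0.05 from limma in all 6 fits, Acat2 in 5, and Srebf2 and Fasn in 2. Srebf1, Hmgcs1, Mvd, Idi1, Fdft1, Nsdhl and Elovl6 had it in 1 fit, which for Hmgcs1, Fdft1 and Nsdhl was that without cytarabine 1. These fits share most of their libraries, and the share of all tested genes with such a p in all 6 was not taken. With the covariates, 0 members were lower and 0 higher at this p. Of the 8 neutrophil markers, 7 were lower at an unadjusted p under 0.05 from limma, against 9.81% of all tested genes, and some genes of the line itself had log2 fold changes below 0 as well. Ptprc, Cd3e and Cd3g had log2 fold changes of -0.14, -0.29 and -0.24 (SE 0.14, 0.17 and 0.13), with overlap between the groups. Lck, also with overlap, had -0.046 (SE 0.15). Itga2, which encodes CD49b, the antigen of the sort, had 8.11, 7.79 and 7.88 FPKM with cytarabine and 10.6, 13.3 and 12.8 FPKM in controls (log2 fold change -0.57, SE 0.10). Of the 9 tested genes listed for the line, myeloid genes included, 7 were below 0. The other 2, Elane and Cd34, had 0.11 (SE 1.22) and 0.56 (SE 0.82). Of the 20 proliferation genes, 6 were lower at an unadjusted p under 0.05 from limma and 0 higher, against 9.81% and 7.6% of all tested genes, with a median log2 fold change of -0.15. The lower ones numbered 2 without cytarabine 3, control 2 or control 3, 3 without cytarabine 2 and 9 without cytarabine 1. They numbered 2 with the covariates or the replicate block. Of all tested genes, 616, 660, 585, 666 and 2049 were lower in the fits without these libraries, in the same order. With the covariates 308 were lower, and with the replicate block 515. Among the proliferation genes, the smallest p were those of Plk1, Cenpf and Kif11, which serve mitosis, at -0.58, -0.59 and -0.38. The part of any of these in the values of the SREBP genes was not tested.

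The other genes of the pathway were a list of 24 with no member in it, of which 23 were tested. At an unadjusted p under 0.05 from limma, 4 of the 23 (17.4%) were lower and 0 higher, against 9.81% and 7.6% of all tested genes, none passed after adjustment, and the median log2 fold change was -0.085. The lower ones numbered 2 with the covariates, a fit in which 308 of all tested genes were lower.
Mbtps1, which encodes the site-1 protease that cleaves SREBPs, was at 56.6, 51.8 and 50.4 FPKM in the treated libraries against 60.3, 66.1 and 66.9 FPKM (log2 fold change -0.28, standard error 0.07, adjusted p = 0.182 from limma). Tmem97, an endoplasmic reticulum protein of sterol handling, was at 80.5, 73.0 and 63.0 FPKM against 93.2, 87.4 and 101 FPKM (log2 fold change -0.38, standard error 0.11, adjusted p = 0.192 from limma). Scap, named after its values were seen, was also among the lower genes, at 25.3 to 31.5 FPKM against 32.8 to 39.0 FPKM (log2 fold change -0.30).
Of the genes above 0, those with the smallest p were Aacs, which activates acetoacetate for lipid synthesis, Acss2, which activates acetate, and Mid1ip1, which promotes acetyl-CoA carboxylase assembly, at log2 fold changes of 0.16 (SE 0.07), 0.64 (SE 0.46) and 0.70 (SE 0.69). Their limma adjusted p were 0.309, 0.458 and 0.573. Acss2 had 11.8, 35.4 and 33.8 FPKM with cytarabine and 22.1, 13.2 and 12.1 FPKM in controls, again high in the 3 libraries with much colon transcript. So was Mid1ip1, with 1.19, 5.07 and 6.49 FPKM against 5.33, 1.48 and 0.467 FPKM. Without 1 library, log2 fold changes ranged from 0.38 to 1.13 for Acss2 and from 0.23 to 1.28 for Mid1ip1.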

How the data were processed

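RNA of sorted C1498 cells from 6 mice was sequenced by the authors as 75-base single-end reads and mapped to mm10 with TopHat 2.0.13, Bowtie2 2.2.3 and SAMtools 0.1.19, and the deposited values are FPKM per gene from Cufflinks 2.2.1. The annotation and the Cufflinks options are not given in the sources used here. FPKM are not counts, so the reads per library were estimated from how low values step in genes with 1 transcript in GENCODE, assuming fragments of 200 bases; 70.9 to 77.5% of these values lay within 0.1 of a whole read, and no test on counts was run.

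On log2(FPKM + 1), 11703 genes whose mean reached 1 FPKM went into the test by limma 3.58.1 under R 4.3.3 (linear fit and trended eBayes; p two-sided and adjusted by Benjamini-Hochberg over these genes). A fold change on this scale understates that of low genes. Groups come from the source names of the samples. The 30 members and all lists were chosen with earlier results of these data known. All members are named, up to 3 genes in each direction with the smallest p from other lists, and markers by their sums; Acat3 and Scap fall outside this rule. 1 of the genes so chosen is not reported here. The limma fit was checked on simulated data. Within-side comparisons along the first principal component were chosen after seeing the data. Gene positions and promoters are RefSeq GRCm38.p6, which is mm10. Markers with no matching row were not used here. Alternatives were other pseudocounts, filters, scalings, eBayes settings, covariates, a replicate block and leaving out each library. Figures used matplotlib 3.10.9.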

Additional observations from a re-analysis of the deposited data

How the results depend on the processing

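With 3 mice a group, 0 of 11703 genes passed an adjusted p under 0.05 from limma, while 890 were higher and 1148 lower at an unadjusted p under 0.05. Those passing numbered 1 with a pseudocount of 0.1, 2 without the eBayes trend, 1 with a robust trend and 0 to 5 when each library was left out in turn, and none was a named gene. The unadjusted counts ranged from 594 to 2026 higher and from 585 to 2049 lower without 1 library, the highest without cytarabine 1, and were 292 higher and 308 lower with colon and heart marker levels as covariates, a fit that spends most of its degrees of freedom. Of the members, 1 was higher and 6 were lower at an unadjusted p under 0.05. Higher members numbered 0 without a filter, with quantile normalization and with the covariates, and 0 to 3 without 1 library. Lower members numbered 0 with the covariates and 4 to 9 without 1 library, 9 without cytarabine 1. The median log2 fold change of the members ranged from -0.15 to -0.0061 without 1 library. For the sterol genes the median was -0.071 with the covariates, and -0.12 both within cytarabine 1 against control 1 to 3, which lie below the largest gap in colon markers, and within cytarabine 1 against control 2 and 3. For the sterol efflux genes it was -0.20, for the oxidation genes 0.033 and for the proliferation genes 0.031 within cytarabine 1 against control 1 to 3. It was 0.085 for the oxidation genes within cytarabine 1 against control 2 and 3, 0.016 for the proliferation genes with the covariates, and 0.17 to 0.51 for the oxidation genes without 1 library. Above the largest gap no control remained, so no value could be had. The cause was not tested.

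Of 812 values of genes chosen by the naming rule under alternatives with a test, 780 kept their direction and side of the threshold and 32 had the opposite sign, with none crossing the adjusted threshold. Since 0 of 11703 genes passed in the main fit and 0 to 5 without 1 library, little but the sign could change. The alternatives are refits of the same libraries, so these counts do not measure how well the values would repeat. With the covariates, log2 fold changes were 0.17 for Insig1, -0.049 for Mvk, 0.13 for Idi1, -0.45 for Tm7sf2, -0.12 for Msmo1, -0.071 for Ebp, 0.075 for Dhcr7, -0.078 for Stard4, 0.0067 for Acly, 0.092 for Elovl6, 2.65 for Scd1, 0.0065 for Scd2, -0.032 for Aacs and 1.22 for Apoe. Mvk had -0.17 with quantile normalization and Dhcr7 0.0097 with FPKM rescaled to an equal sum. Without 1 library, the range was -0.058 to 0.0053 for Acly, -1.10 to 0.59 for Apoe, -0.063 to 0.066 for Dhcr7, -0.020 to 0.18 for Ebp, -0.25 to 0.030 for Insig1, -0.034 to 0.27 for Msmo1, -0.10 to 0.21 for Mvk, -1.06 to 0.90 for Scd1 and -0.11 to 0.020 for Scd2. The cause was not tested.

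In a fit with replicate number as block term, 479 genes were higher and 515 lower at an unadjusted p under 0.05, and 0 members were higher. Same-numbered libraries are different mice, and their deviations from the group means correlated at -0.709, -0.247 and -0.594, so the numbers were not taken to pair them.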

Other observations

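All 20 tested genes of fatty acid oxidation had a log2 fold change above 0, with a median of 0.30, and 5 of the 20 (25.0%) were higher at an unadjusted p under 0.05 from limma against 7.6% of all tested genes. None passed after adjustment. The higher ones numbered 16 without cytarabine 1, 4 to 6 without any other single library, and 0 with colon and heart marker levels as covariates. The groups did not overlap for 6 of the 20, against 10.9% of all tested genes. Acadl, the long-chain acyl-CoA dehydrogenase, was at 211, 225 and 197 FPKM in cytarabine 1, 2 and 3, against 153, 131 and 158 FPKM in control 1, 2 and 3, with a log2 fold change of 0.52 (SE 0.09, limma adjusted p = 0.137). Acadvl, which acts on very long chains, was at 52.4, 60.9 and 59.5 FPKM against 39.8, 39.0 and 42.9 FPKM, with a log2 fold change of 0.49 (SE 0.08, limma adjusted p = 0.136). Acaa2, the mitochondrial thiolase, was at 42.8, 54.8 and 48.3 FPKM against 34.0, 36.4 and 35.8 FPKM, and had 0.44 (SE 0.10, limma adjusted p = 0.159). The median of the list was 0.085 between cytarabine 1 and control 2 and 3 and 0.37 between cytarabine 2 and 3 and control 1. Acadl differed by 0.55 and 0.46 in these comparisons, and the part of colon transcripts was not tested.

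Of 9 tested genes for sterol efflux and lysosomal release, 1 was higher and 1 lower at an unadjusted p under 0.05 from limma (11.1% each), near the 7.6% and 9.81% of all tested genes. They numbered 2 higher without cytarabine 1, 2 lower without control 1, and 0 lower without cytarabine 3, control 2 or control 3 or with the replicate block. With the covariates, 0 were called either way. Mylip, which targets lipoprotein receptors for breakdown, was at 5.39, 9.38 and 6.74 FPKM after cytarabine, against 3.61, 4.03 and 4.30 FPKM in controls, with a log2 fold change of 0.69 (SE 0.19, limma adjusted p = 0.192). Npc1, which moves cholesterol out of lysosomes, was at 7.48, 6.53 and 6.39 FPKM against 8.0, 9.14 and 9.14 FPKM, with a log2 fold change of -0.32 (SE 0.10, limma adjusted p = 0.207). Npc2 and Lipa, also of lysosomal release, had 0.31 and 0.075, and Nr1h2, a sterol receptor, and Apoe, a carrier of lipids, had -0.23 and -0.32. The proliferation genes above 0 with the smallest p were Ccnb2, Kif20a and Mcm3, at 0.33, 0.21 and 0.17.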
